A study of Mus musculus with 8 samples.

Results

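The tricarboxylic acid cycle enzymes described here are the 9 genes whose symbols in the deposited expression table are Cs, Idh2, Idh3a, Idh3b, Ogdh, Dlst, Suclg1, Sucla2 and Fh1. They were picked by symbol out of 49452 genes, and all 9 have a row, lie on autosomes and passed the filter on low values in both comparisons. Brown adipose tissue (BAT) from C57BL/6 males was sequenced (RNA-Seq) in 4 groups of 2 libraries, and each comparison set 2 libraries against 2. The cold comparison used mice 10 to 12 weeks old that were kept at 22 °C (replicates 4 and 7) or at 4 °C for 24 h (replicates 2 and 11). In the diet comparison the mice were 32 weeks old and had received a control diet (CD, replicates 6 and 8; named a normal chow in the sample labels) or a high-fat diet (HFD, replicates 2 and 6) for 28 weeks. No allele or transgene is given for any group. The methods place a fast of 4 h at the end of the cold exposure without making clear whether the 22 °C mice were fasted as well, and if they were not, cold and fasting cannot be told apart. Values are FPKM, fragments per kilobase of transcript scaled to the mapped fragments of the library, a level that can be compared between genes.

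The cycle runs in the mitochondrial matrix. It oxidises the acetyl group of acetyl-CoA to CO2, hands the electrons to NAD+ and FAD for the respiratory chain, and makes nucleoside triphosphate at the succinyl-CoA step. BAT is rich in mitochondria and burns fuel to make heat, with the uncoupling protein UCP1 letting protons return to the matrix without making ATP.

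All 9 enzymes were abundant. Their FPKM summed to 1854 and 2107 in the 22 °C libraries, 3248 and 2754 in the 4 °C libraries (replicates 2 and 11), 3335 and 1875 in the CD libraries (replicates 6 and 8) and 2005 and 3174 in the HFD libraries (replicates 2 and 6). Both 4 °C sums lay above both 22 °C sums, whereas the CD and HFD sums overlapped. The lowest single value was 82.9 FPKM, for Idh2 in CD replicate 8, and the highest was 895 FPKM, for Idh3a in 4 °C replicate 2. By the size of the smallest steps in the table, the member values correspond to about 12842 to 192526 fragments per gene and library, so counting error was small beside the spread between libraries.

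In the cold comparison, 8 of the 9 enzymes had both 4 °C values above both 22 °C values, and Idh2 overlapped. Over all 17470 genes tested, 37.9% were higher in both 4 °C libraries and 20.6% were lower in both. Idh3a stood furthest apart at 3.22-fold, followed by Ogdh at 1.72-fold, Dlst at 1.59-fold and Cs at 1.45-fold. None of the 9 passed the call rule (limma, adjusted p under 0.05 and at least a 2-fold change), which 1.44% of all genes passed. Two-sided unadjusted p was under 0.05 for 2 of the 9 (Idh3a and Ogdh), against 24.5% of all genes. The median log2 fold change of the 9 was 0.37, beside 0.07 over all genes tested and 0.21 over protein-coding genes averaging 1 FPKM or more, a set closer to the members in level. With only 2 libraries a side, an exact permutation test of a single gene cannot give a p below 0.33.

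**Figure D1:**
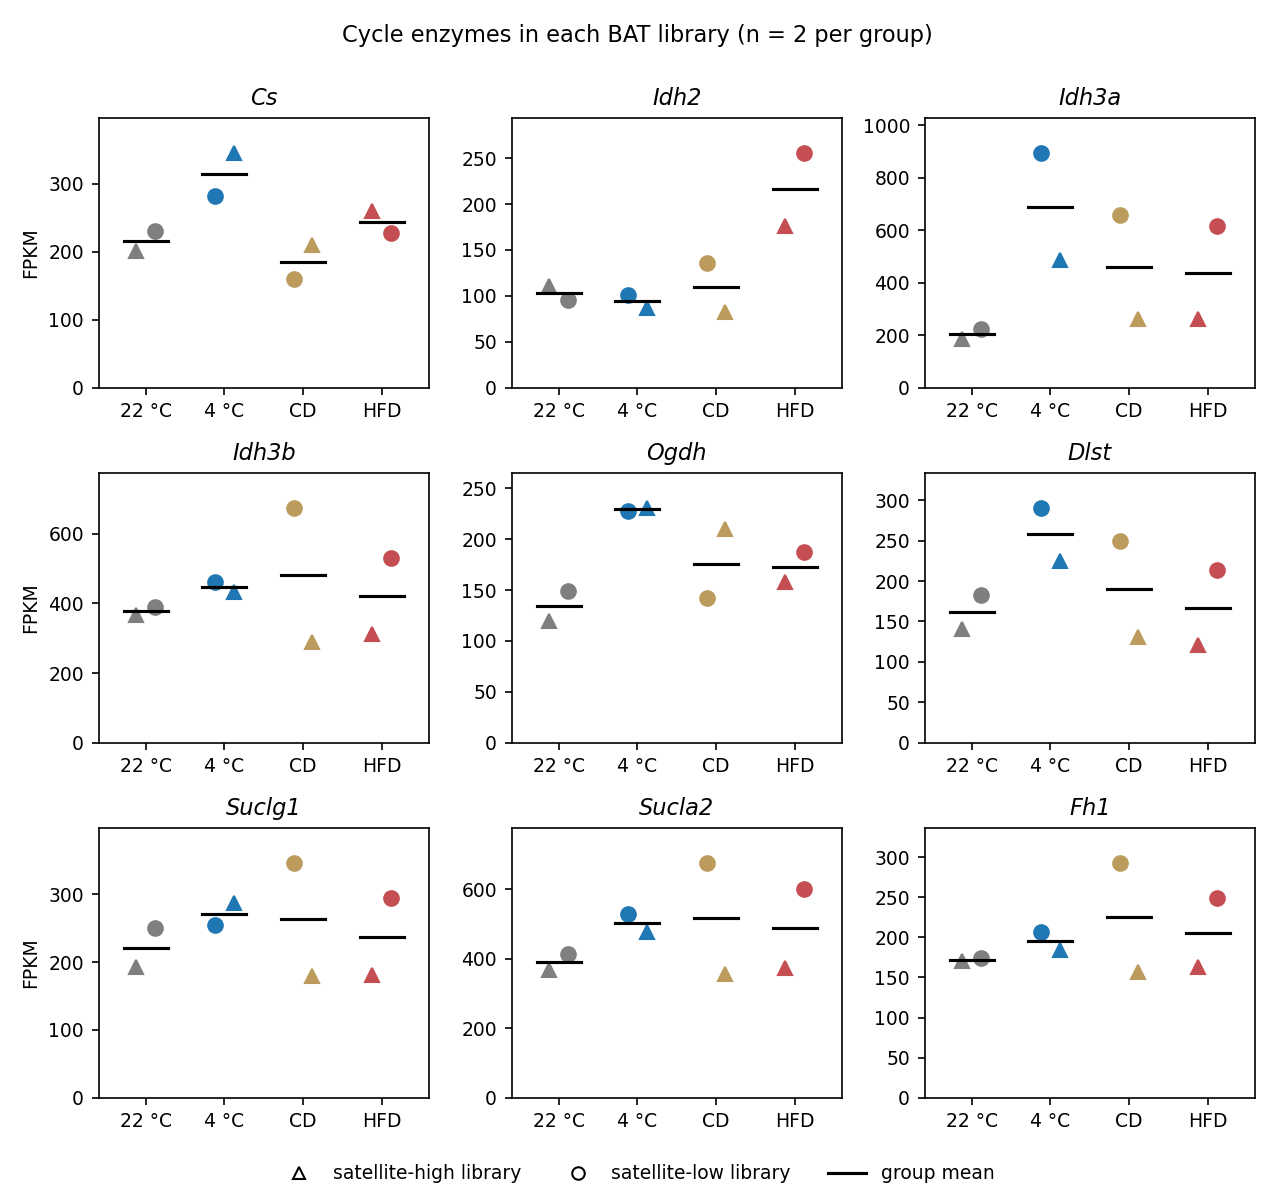
FPKM (vertical axis, from 0) of each of the 9 enzymes in the 8 BAT libraries, by group; triangles are satellite-high libraries (the satellite-repeat gene Gm10800 above 100 FPKM), circles satellite-low libraries, and bars are means of 2 libraries. Idh3a at 4 °C (484 and 895 FPKM) lies above both 22 °C libraries (187 and 222 FPKM), and in the CD and HFD groups the circle lies above the triangle for Idh2, Idh3a, Idh3b, Dlst, Suclg1, Sucla2 and Fh1.

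Citrate synthase (Cs; ENSMUSG00000005683, chr10:128337832-128362479, GRCm38) joins acetyl-CoA to oxaloacetate and is the entry step of the cycle. Its level was 201 and 230 FPKM in 22 °C replicates 4 and 7, and 283 and 346 FPKM in 4 °C replicates 2 and 11. The 2 groups did not overlap, with means of 216 ± 21.1 and 314 ± 44.6 FPKM (SD, n = 2 each). The log2 fold change was 0.54 (SE 0.28, adjusted p = 0.299).

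NAD-dependent isocitrate dehydrogenase makes 2-oxoglutarate from isocitrate and is built from a catalytic alpha subunit (Idh3a; ENSMUSG00000032279, chr9:54586334-54604661) with beta and gamma partners. Idh3a was at 187 and 222 FPKM in 22 °C replicates 4 and 7 and at 895 and 484 FPKM in 4 °C replicates 2 and 11. Both cold values lay above the warm pair by far more than the warm pair's own spread, but they also differed strongly from each other. Mean levels were 205 ± 25.4 and 689.6 ± 290.1 FPKM (SD, n = 2 each), and the log2 fold change was 1.69 (SE 0.39, adjusted p = 0.0845). Across 15 other settings its log2 fold change stayed above 0, between 1.23 and 2.76, and its adjusted p ran from 0.0322 to 0.429.

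The call on Idh3a depended on the setting. It passed with library type (explained with the diet results) as a covariate (adjusted p = 0.0322), with library type in a fit of all 8 libraries (adjusted p = 0.0428) and after centring each library on its median (adjusted p = 0.0425). It missed under the other 12 settings, including each fit that left out 1 library. With the library-type covariate Idh3a was the only member called, 1 of 9, against 4.92% of all genes.

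The beta subunit Idh3b (ENSMUSG00000027406, chr2:130279309-130284547), a regulatory partner of Idh3a in the same enzyme, was at 366 and 391 FPKM at 22 °C and at 463 and 434 FPKM at 4 °C. These values do not overlap but lie close together (log2 fold change 0.24, SE 0.28, adjusted p = 0.639). Idh3g, which encodes the gamma subunit, lies on the X chromosome, where every gene is listed at 0 in both 22 °C libraries and in CD replicate 6. It was at 355 and 364 FPKM at 4 °C, 331 FPKM in CD replicate 8, and 341 and 509 FPKM in the HFD libraries, and no fold change can be given for it.

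Idh2 (ENSMUSG00000030541, chr7:80094846-80115392) encodes the NADP-dependent enzyme of the matrix, which makes NADPH in the same conversion of isocitrate. It was the lowest of the 9 in all 22 °C, 4 °C and CD libraries. It was at 111 and 95.4 FPKM at 22 °C and at 101 and 86.5 FPKM at 4 °C. The groups overlapped, and the log2 fold change was -0.13 (SE 0.24, adjusted p = 0.772).

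A ratio of members within a library does not change when the whole library is scaled by a single factor, though quantile normalization can change it. Idh3a to Idh3b was 0.509 and 0.569 in the 22 °C libraries, and 1.93 and 1.12 in 4 °C replicates 2 and 11. The beta subunit was thus the more abundant transcript at 22 °C and the alpha subunit at 4 °C, a 2.73-fold difference in the ratio (log2 difference 1.45). The exact permutation p was 0.33, the smallest that 2 against 2 can give. Idh2 to Idh3a was 0.594 and 0.429 at 22 °C and 0.113 and 0.179 at 4 °C, again with no overlap (log2 difference -1.83, exact permutation p = 0.33). For each of the other 8 members, both 4 °C ratios of Idh3a to it lay above both 22 °C ratios, with log2 differences from 0.91 (against Ogdh) to 1.83 (against Idh2). These ratios to members outside the planned pairs were computed after the data had been seen. Idh3a made up 10.1% and 10.6% of the summed FPKM of the 9 at 22 °C, where it ranked 5, and 27.5% and 17.6% at 4 °C, where it ranked 1 in both libraries.

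**Figure D2:**
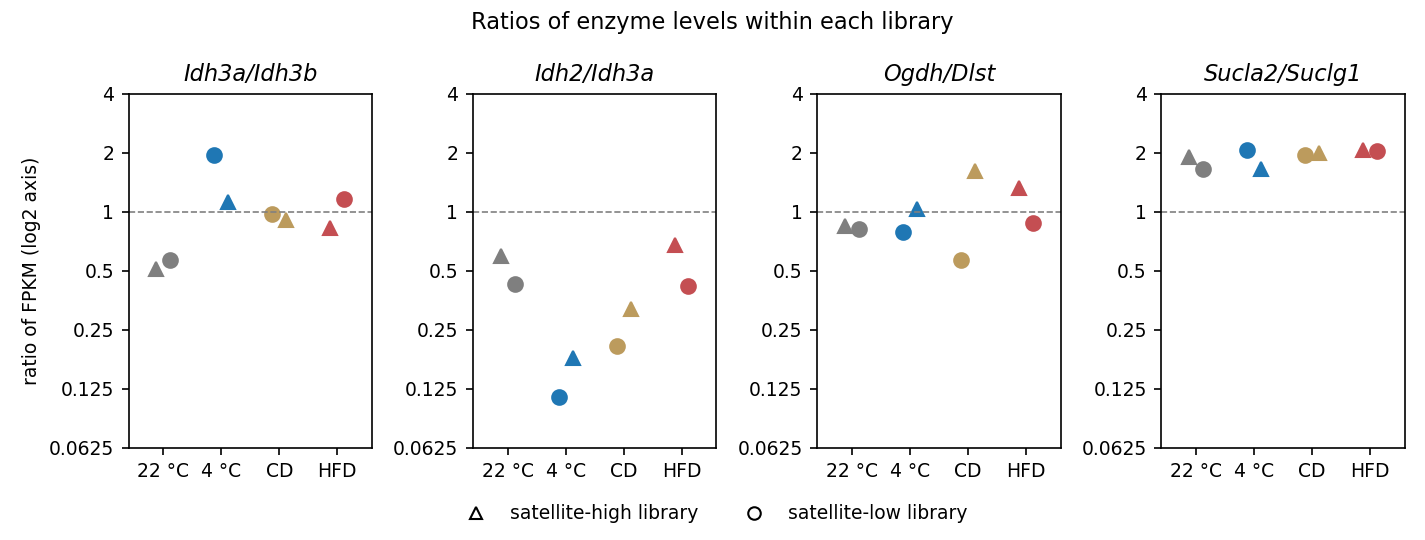
Ratio of FPKM (vertical axis, log2 scale) for 4 pairs of enzymes in each of the 8 libraries by group; triangles are satellite-high and circles satellite-low libraries, and the dashed line marks equal levels. Idh3a to Idh3b is below 0.57 in both 22 °C libraries and above 1.1 in both 4 °C libraries, while Sucla2 to Suclg1 runs from 1.65 to 2.07 over all 8.

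The 2-oxoglutarate dehydrogenase complex turns 2-oxoglutarate into succinyl-CoA, releasing CO2. Ogdh (ENSMUSG00000020456, chr11:6291633-6356642) encodes its dehydrogenase component and Dlst (ENSMUSG00000004789, chr12:85110833-85134091) the succinyltransferase core. Ogdh was at 119 and 149 FPKM at 22 °C and at 228 and 231 FPKM at 4 °C. The cold pair nearly coincided, and both lay far above the warm pair (log2 fold change 0.78, SE 0.26, adjusted p = 0.156). Dlst was at 141 and 183 FPKM at 22 °C and at 291 and 225 FPKM in 4 °C replicates 2 and 11. The 2 groups did not overlap (log2 fold change 0.67, SE 0.30, adjusted p = 0.238). The ratio of Ogdh to Dlst was 0.846 and 0.813 at 22 °C and 0.783 and 1.03 at 4 °C, so it overlapped between the groups.

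Because Ogdh and Dlst encode parts of the same complex and had close cold fold changes, the 150 bases before a RefSeq start site of each are shown (GRCm38.p6, both on the plus strand; Ogdh chr11:6291447-6291596, Dlst chr12:85110683-85110832). Capitals mark the matches found on either strand to the CCAAT box (which reads ATTGG when reversed), to the cyclic AMP response element TGACGTCA and to the Sp1 core GGGCGG (which reads CCGCCC when reversed).
Ogdh: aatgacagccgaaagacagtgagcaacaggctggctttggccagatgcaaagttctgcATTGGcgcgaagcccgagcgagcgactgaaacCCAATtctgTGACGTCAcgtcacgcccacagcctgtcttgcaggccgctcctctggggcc
Dlst: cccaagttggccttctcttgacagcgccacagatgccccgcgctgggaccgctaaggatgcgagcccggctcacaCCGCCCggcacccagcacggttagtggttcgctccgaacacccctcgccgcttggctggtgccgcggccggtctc
No motif is capitalised in both stretches, but the Sp1 core also occurs after this start of Ogdh, outside the stretch shown. The Ogdh stretch has a pair of CCAAT boxes and the response element, and the Dlst stretch has a single Sp1 core.

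The same search over windows from 250 bases before to 50 after each RefSeq start covered 8 of the 9 members, all but Idh3a. Over 32851 windows of that length, TGACGTCA was in 1.79%, and among the members in Ogdh alone. The NRF1 core GCGCATGC (2.71% of windows) and the E-box CACGTG (7.15% of windows) were each found in Ogdh alone, the ETS motif CCGGAAGT (3.89% of windows) in Dlst alone, and the estrogen-related receptor element TNAAGGTCA (1.28% of windows) in none of the 8. GGGCGG was present in 6 of the 8 members, Ogdh and Dlst among them, and in 35.7% of windows. CCAAT was present in 5 of the 8 and 37.4% of windows. The percentages are per window, whereas members were counted per gene. A gene may have several start sites and so several windows, and a match is a description of the letters only. Ogdh had several windows and so more places for a match. Its NRF1 core and E-box lay only in windows of starts downstream of the one shown.

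Succinyl-CoA ligase makes succinate together with a nucleoside triphosphate. Suclg1 (ENSMUSG00000052738, chr6:73248382-73276911) encodes the alpha subunit that all forms of the enzyme share, and Sucla2 (ENSMUSG00000022110, chr14:73525319-73596142) the beta subunit of the ADP-using form. Suclg1 was at 193 and 250.1 FPKM at 22 °C and at 255 and 288 FPKM at 4 °C, so the groups nearly touched (log2 fold change 0.30, SE 0.29, adjusted p = 0.558). Sucla2 was at 366 and 412 FPKM at 22 °C and at 527 and 476 FPKM at 4 °C. It did not overlap either (log2 fold change 0.37, SE 0.29, adjusted p = 0.483).

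Sucla2 was the most abundant of the 9 in both 22 °C libraries. Its ratio to Suclg1 kept to a narrow band, 1.65 to 2.07 over all 8 libraries. Suclg2, the beta subunit of the GDP-using form, was far lower at 38.5 and 36.9 FPKM at 22 °C and 36.0 and 28.3 FPKM at 4 °C. Sucla2 to Suclg2 was 9.53 and 11.2 at 22 °C and 14.7 and 16.8 at 4 °C, a 1.52-fold higher ratio with no overlap (exact permutation p = 0.33, the smallest possible).

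Fumarase (Fh1; ENSMUSG00000026526, chr1:175600374-175625635) hydrates fumarate to malate. It was at 170.2 and 174 FPKM at 22 °C and at 207 and 184 FPKM at 4 °C. This was the smallest difference in the cold comparison among the 8 members that did not overlap (log2 fold change 0.18, SE 0.25, adjusted p = 0.700). Of the genes that overlap members in the genome, Kmo (in Fh1) was at 0.181 to 0.332 FPKM and Nop56 (beside Idh3b, sharing 5 bases) at 3.66 to 8.78 FPKM, both far below the member. Csl, a copy of Cs elsewhere in the genome, was at 0.0224 FPKM or less.

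**Figure D3:**
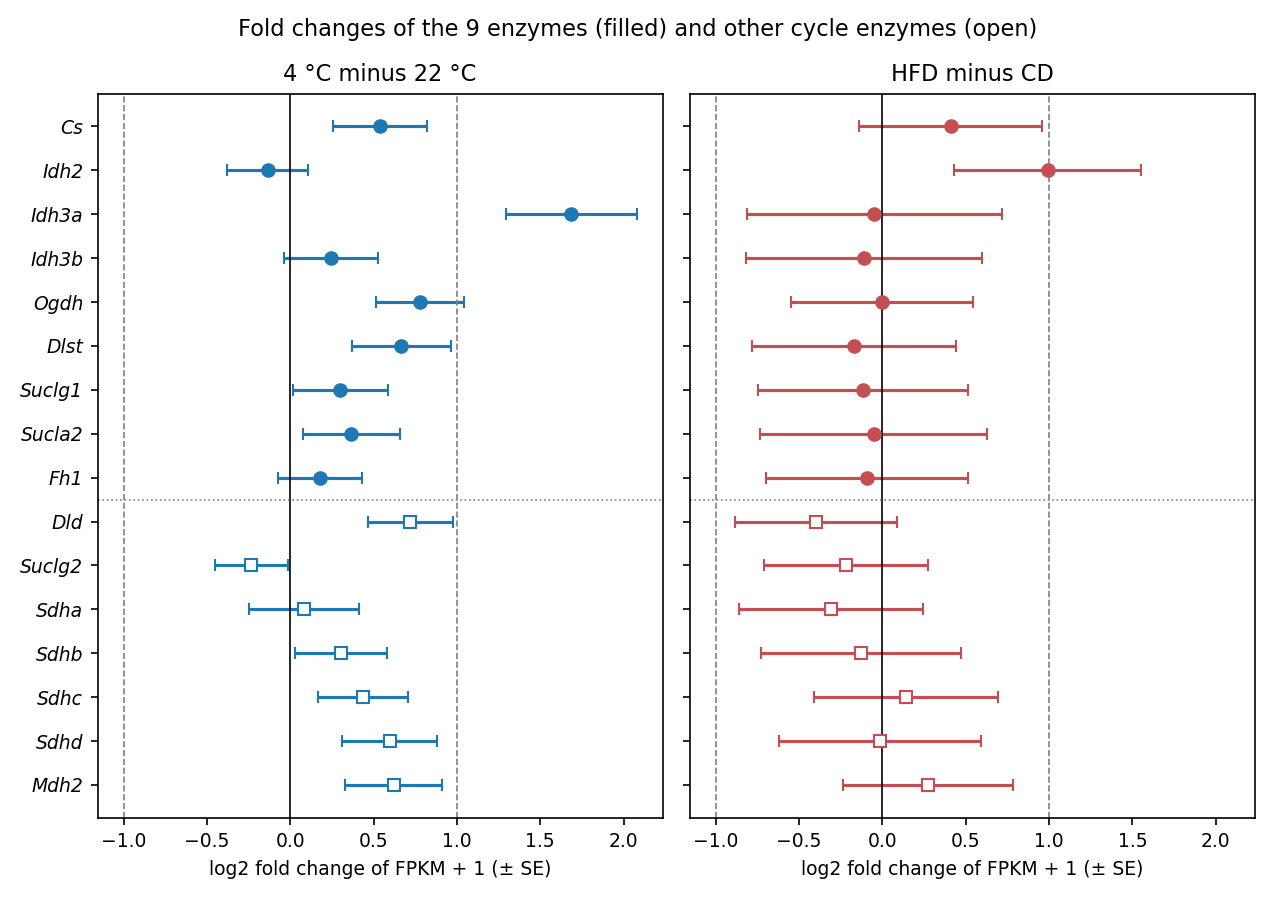
Log2 fold change of FPKM + 1 with its SE from limma for the 9 enzymes (filled) and 7 other cycle enzymes tested in both comparisons (open), at 4 °C against 22 °C and on HFD against CD. Dashed lines mark 2-fold; Idh3a at 4 °C (1.69) is the only point past it, and Idh2 on HFD (0.99) lies just inside.

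How the libraries are scaled decides the sign for most members in the cold comparison. FPKM summed over autosomal protein-coding genes without Ucp1 came to 190999 and 192420 in the 22 °C libraries and to 282037 and 231020 in 4 °C replicates 2 and 11, so this sum, which abundant genes carry, was higher in both cold libraries. Both 22 °C libraries also list at most 1 mitochondrial gene above 0, against 15 in both 4 °C libraries, and this difference between the files cannot be told apart from temperature. The median log2 fold change of the 9 was 0.10 after median centring, -0.05 after rescaling to that sum and -0.14 after quantile normalization. Over all genes tested the same medians were -0.19, -0.10 and -0.03. Idh3a, Ogdh and Dlst lay above 0 under all 4 scalings. Idh3b and Fh1 were below 0 under each of the 3 alternatives, Suclg1 and Sucla2 after rescaling and quantile normalization, and Cs after quantile normalization (-0.05). Idh2 was below 0 under all 4. After median centring, Idh3a, Ogdh and Dlst were higher in both 4 °C libraries and Idh2 and Fh1 lower in both (19.4% and 49.1% of all genes). After rescaling, the same 3 were higher and Idh2, Idh3b and Fh1 lower (19.1% and 43.9% of all genes). After quantile normalization, Idh3a alone was higher and Idh2 and Fh1 were lower (26.0% and 32.5% of all genes).

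**Figure D4:**
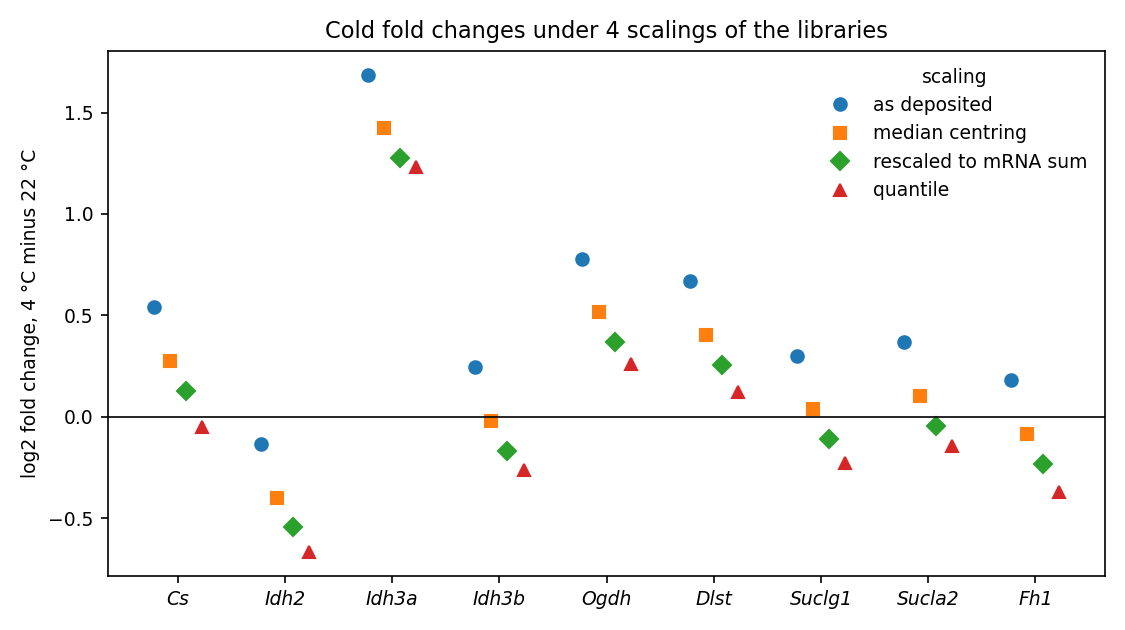
Log2 fold change at 4 °C against 22 °C (vertical axis) of each of the 9 enzymes under 4 scalings of the libraries. Idh3a runs from 1.23 to 1.69 and stays above 0 with Ogdh and Dlst, whereas Idh3b and Fh1 are above 0 only as deposited.

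In the diet comparison, Cs and Idh2 were higher in both HFD libraries than in both CD libraries, and the other 7 enzymes overlapped. Over all 17535 genes tested, 39.9% were higher in both HFD libraries and 5.8% were lower in both. No member was called with limma, by the rule that 0.0684% of all genes passed, and none had an unadjusted p under 0.05, which 14.4% of all genes had. The median log2 fold change of the 9 was -0.05, beside 0.18 over all genes tested and 0.29 over protein-coding genes averaging 1 FPKM or more. It depended on single libraries: without CD replicate 6 it was 0.36, without CD replicate 8 it was -0.54, without HFD replicate 2 it was 0.27 and without HFD replicate 6 it was -0.40. The identifier that the labels give CD replicate 6 begins like those of the 22 °C and 4 °C libraries, whereas the other 3 diet libraries share a different beginning. The labels do not say what it stands for.

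Idh2 had the largest difference on HFD. It was at 136 and 82.9 FPKM in CD replicates 6 and 8 and at 176 and 256 FPKM in HFD replicates 2 and 6. Both HFD libraries also exceeded all 4 libraries of the cold comparison. The mean was 109.6 ± 37.7 FPKM on CD and 216 ± 56.2 FPKM on HFD (SD, n = 2 each), 1.99-fold (log2 fold change 0.99, SE 0.56, adjusted p = 0.475). With library type as a covariate its adjusted p was 0.0262 at the same fold change, just under the 2-fold rule, and over 15 other settings it ran from there to 0.9998. With that covariate 0 of the 9 members were called, against 4.24% of all genes.

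Cs was at 160.1 and 209.6 FPKM on CD and at 261 and 228 FPKM on HFD (replicates 2 and 6), higher in both HFD libraries with a gap between the pairs that was smaller than the spread of either pair (log2 fold change 0.41, SE 0.55, adjusted p = 0.776). The ratio of Idh2 to Idh3a was 0.207 and 0.319 on CD and 0.679 and 0.416 on HFD, with no overlap (log2 difference 1.05, exact permutation p = 0.33). Idh3a itself was at 657 and 260.0 FPKM in CD replicates 6 and 8 and at 259.8 and 615 FPKM in HFD replicates 2 and 6. Each diet group thus held a high and a low library, and the group means of 459 and 437 FPKM differed by far less than that spread (log2 fold change -0.05, SE 0.76, adjusted p = 0.984).

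Idh3b, its partner, showed the same arrangement at 675 and 288 FPKM on CD and 313 and 532 FPKM on HFD, and the ratio of Idh3a to Idh3b was 0.974 and 0.903 on CD and 0.830 and 1.16 on HFD. Sucla2 was at 676 and 357 FPKM on CD and 373 and 600.3 FPKM on HFD. Fh1 was at 293 and 157 FPKM on CD and 163 and 249.4 FPKM on HFD. For all 3, CD replicate 6 and HFD replicate 6 were the high libraries.

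Suclg1 was at 347 and 180.1 FPKM on CD and 181 and 294 FPKM on HFD, and Dlst at 249.5 and 131 FPKM on CD and 120.5 and 213 FPKM on HFD, in the same order again. Ogdh was at 142 and 209.6 FPKM on CD and 158 and 187 FPKM on HFD, so here CD replicate 8 was the higher of its pair. The 7 overlapping enzymes had log2 fold changes between -0.17 (Dlst) and 0.00 (Ogdh), SEs of 0.54 to 0.76 and adjusted p from 0.923 to 0.999. The table thus does not resolve a diet difference of the size of these SEs.

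The split within the diet groups follows a feature of the libraries. The satellite-repeat gene Gm10800 was above 100 FPKM in 1 library of every group (replicate 4 at 22 °C, 11 at 4 °C, 8 on CD, 2 on HFD) and at most 4.13 FPKM in the other, giving a satellite-high and a satellite-low library per group. In the satellite-high libraries Gm10800 was at 6464 FPKM (22 °C), 447 FPKM (4 °C), 9038 FPKM (CD) and 15726 FPKM (HFD). The type is thus a cutoff and not an equal level across groups. Idh3a, Idh3b, Dlst, Sucla2 and Fh1 were higher in the satellite-low library in 4 of 4 groups. Idh2 and Suclg1 were so in 3 groups, Ogdh in 2 and Cs in 1. For Idh3a the log2 difference of low minus high was 0.25 at 22 °C, 0.88 at 4 °C, 1.33 on CD and 1.24 on HFD. Whether the satellite level or something that goes with it bears on the enzymes was not tested.

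Within a library type each comparison is 1 library against 1. Idh3a differed between 4 °C and 22 °C by 1.37 on the log2 scale in satellite-high and 2.0 in satellite-low libraries, Ogdh by 0.95 and 0.61, and Dlst by 0.67 in both. The cold difference of Idh2 had opposite signs (-0.35 and 0.08). On HFD against CD, Idh2 differed by 1.08 and 0.90 and Cs by 0.31 and 0.50, in the same direction in both types. Ogdh differed by -0.40 in satellite-high and 0.40 in satellite-low libraries. The other 6 lay between -0.34 and 0.12 in either type.

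**Figure D5:**
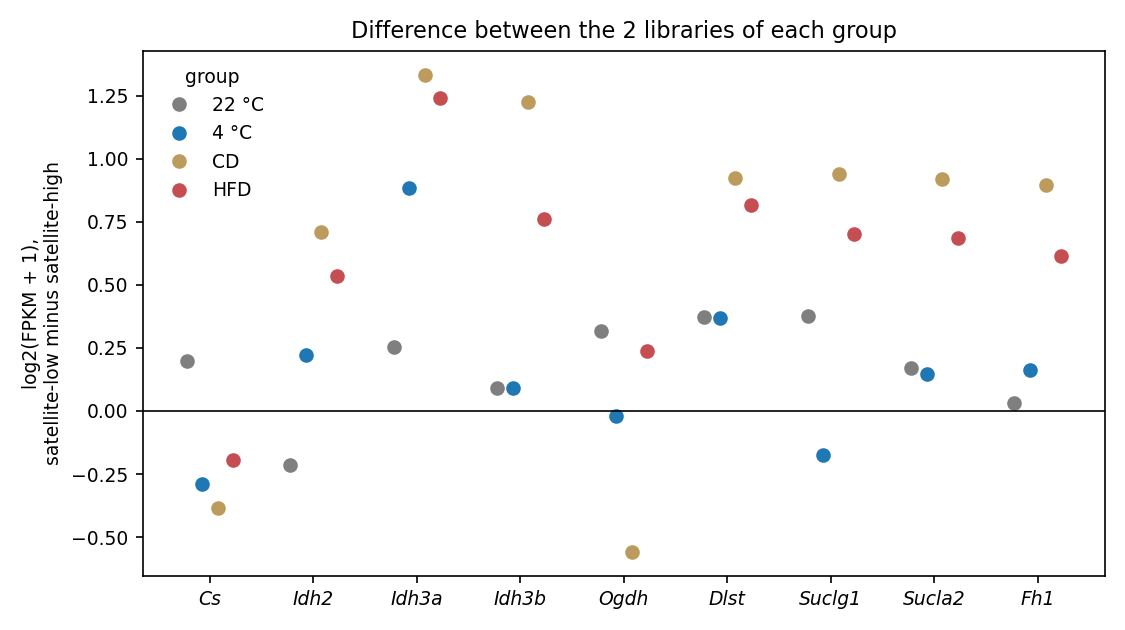
Difference in log2(FPKM + 1) between the satellite-low and the satellite-high library of each group (vertical axis) for each of the 9 enzymes, 1 point per group. Idh3a, Idh3b, Dlst, Sucla2 and Fh1 are above 0 in all 4 groups, with CD and HFD furthest from 0, and Cs is above 0 only at 22 °C (0.20).

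The members did not vary as a block over the 8 libraries. On log2(FPKM + 1), Sucla2 and Fh1 had a Pearson r of 0.969, Idh3b and Sucla2 of 0.965, Idh3b and Fh1 of 0.964 and Suclg1 and Idh3b of 0.942. Cs went with Ogdh most closely (r = 0.675) and was not aligned with Fh1 (r = -0.40) or Idh2 (r = -0.21). Idh2 reached its highest r with Fh1, 0.483. These are descriptions over 8 libraries (n = 8) that share library type and scaling, with no test. Among 9914 other autosomal protein-coding genes averaging 1 FPKM or more, those closest to the mean standardized level of the 9 were Golm1 (r = 0.985), Tmem55b (0.985), Sppl2a (0.983), Tmx1 (0.983) and Grpel1 (0.982). Grpel1, a co-chaperone of protein import into the matrix, ran from 23.6 to 57.4 FPKM over the 8 libraries.

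Of the remaining cycle enzymes, 8 could be tested in the cold comparison and 9 on HFD. None was called in the cold (1.44% of all genes were) or on HFD (0.0684%). Their median log2 fold change was 0.37 in the cold, the same as that of the 9 members to 2 decimals, and -0.02 on HFD. In the cold 5 of the 8 were higher in both libraries and 1 lower (Suclg2, -0.23), against 37.9% and 20.6% of all genes, and on HFD all 9 overlapped, against 39.9% higher and 5.8% lower among all genes. None was called with the library-type covariate either, where 4.92% of all genes in the cold and 4.24% on HFD were. At 4 °C the largest was Dld (0.72, SE 0.25, adjusted p = 0.171), which encodes the dihydrolipoamide dehydrogenase that works in the same complex as Ogdh and Dlst. Dld was at 41.1 and 48.5 FPKM at 22 °C and at 64.1 and 86.1 FPKM at 4 °C.

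The malate dehydrogenase Mdh2, which closes the cycle, differed by 0.62 on the log2 scale in the cold (SE 0.29, adjusted p = 0.256) and by 0.27 on HFD. Succinate dehydrogenase, which also serves as a complex of the respiratory chain, is encoded by 4 genes. Their cold log2 fold changes were 0.08 (Sdha), 0.31 (Sdhb), 0.44 (Sdhc) and 0.60 (Sdhd). Sdha overlapped between 22 °C (126 and 114 FPKM) and 4 °C (97.2 and 165 FPKM). Ogdhl, a relative of Ogdh, was at 0.132 FPKM or less throughout.

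The pyruvate dehydrogenase complex and its regulators feed acetyl-CoA into the cycle. Of 11 genes tested none was called in the cold (1.44% of all genes were) or on HFD (0.0684%). With the library-type covariate 1 was called in each, Pdhx higher in the cold (4.92% of all genes) and Pdk1 lower on HFD (4.24%). In the cold 9 of 11 were higher in both 4 °C libraries (37.9% of all genes) and 8 had an unadjusted p under 0.05 (24.5% of all genes), with a median log2 fold change of 0.72. The 8 include the kinase Pdk1, which was lower in both (-0.83, SE 0.25, adjusted p = 0.130). Pdk4, a kinase that switches the complex off, was at 366 and 271 FPKM at 22 °C and at 1340.3 and 706 FPKM in 4 °C replicates 2 and 11 (1.62, SE 0.43, adjusted p = 0.104). Pdhx, which anchors the dihydrolipoamide dehydrogenase in the complex, was at 28.1 and 40.9 FPKM at 22 °C and 91.1 and 73.7 FPKM at 4 °C (1.25, SE 0.28, adjusted p = 0.0779). On HFD the median was -0.31. Pdk1 was at 29.4 and 15.6 FPKM on CD and 6.77 and 8.08 FPKM on HFD (-1.42, SE 0.41, adjusted p = 0.207), and the pyruvate carrier subunit Mpc1 had a log2 fold change of -0.70 with overlapping groups.

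Of 16 genes of entry, exit and cytosolic counterpart steps, none was called in the cold (1.44% of all genes were) or on HFD (0.0684%). Their medians were 0.24 in the cold and 0.07 on HFD. With the library-type covariate 2 were called in each comparison (Mdh1 and Me1 higher in the cold, Slc25a10 higher and Me1 lower on HFD), where 4.92% of all genes in the cold and 4.24% on HFD were. Mdh1, the cytosolic malate dehydrogenase, was at 231 and 235 FPKM at 22 °C and at 687 and 493 FPKM at 4 °C (1.32, SE 0.31, adjusted p = 0.0856). The malic enzyme Me1 differed by 1.11 on the log2 scale in the cold (SE 0.51, adjusted p = 0.248) and by -1.11 on HFD (SE 0.48, adjusted p = 0.354). The dicarboxylate carrier Slc25a10 was at 4.99 and 1.38 FPKM on CD and at 13.1 and 11.5 FPKM on HFD (1.82, SE 0.46, adjusted p = 0.170).

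Ucp1, the defining marker of the labelled tissue, was at 699 to 6462 FPKM over the 8 libraries. In the cold, 3 of 10 brown adipocyte markers were called higher (1.44% of all genes were called). They were Elovl3 (log2 fold change 4.58), Dio2 (3.01) and Ppargc1a (2.92), the last a coactivator of mitochondrial genes. With the library-type covariate 5 of the 10 were called in the cold (4.92% of all genes). Of the 10, 8 were higher in both 4 °C libraries (37.9% of all genes) and Prdm16 (-0.68) was lower in both (20.6% of all genes). On HFD none of the 10 was called (0.0684% of all genes were). With the library-type covariate Elovl3 and Cidea were called, both lower (4.24% of all genes). Dio2, Ppargc1a and Prdm16 were higher in both HFD libraries (39.9% of all genes). Elovl3 (-3.14, limma adjusted p = 0.118 without the covariate), Cidea (-1.07) and Kcnk3 (-0.82) were lower in both (5.8% of all genes). Of 6 general adipocyte markers, 4 were higher in both 4 °C libraries (37.9% of all genes) and 1 was lower in both (20.6%). Among the same 6, 1 was higher in both HFD libraries (39.9% of all genes) and 5 overlapped. None of the 6 was called in the cold (1.44% of all genes were) or on HFD (0.0684%). Across autosomal genes the pair of libraries of a group had an r of 0.968 to 0.982, and genes are not independent replicates. The number of genes called in the cold comparison ranged from 0 to 869 over the settings, and on HFD from 0 to 752. In bulk tissue, fewer cells of a type and less RNA per cell cannot be told apart.

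Nearly all skeletal muscle markers were separated in both comparisons, and all 6 macrophage markers were separated on HFD. Endothelial, erythroid and lymphoid markers partly overlapped or split in direction. In the cold 5 of 6 macrophage markers and 2 of 2 tested erythroid markers overlapped. Of 6 endothelial markers 2 were higher (37.9% of all genes), 2 lower (20.6%) and 2 overlapping. Of 5 tested lymphoid markers 3 were lower and 2 overlapped. On HFD 3 of 6 endothelial and 1 of 3 erythroid markers were higher (39.9% of all genes). Lymphoid markers split into 3 higher and 3 lower (5.8%). All 11 of 11 skeletal muscle markers found were higher in both 4 °C libraries (37.9% of all genes), with a median log2 fold change of 3.37. None of them was at 0 in any library. With limma 0 of 11 were called (1.44% of all genes), and 11 had an unadjusted p under 0.05 (24.5%). With the library-type covariate 6 were called (4.92% of all genes). Their summed level was 117 to 569 FPKM at 22 °C and 1981 to 4561 FPKM at 4 °C. On HFD 10 of 11 were lower in both libraries (5.8% of all genes). With limma 0 of 11 were called (0.0684% of all genes), and 10 had an unadjusted p under 0.05 (14.4%). With the covariate 10 were called (4.24% of all genes). The sums were 576 to 1525 FPKM on CD and 15.5 to 185 FPKM on HFD. Muscle also expresses the cycle enzymes, and its part in the difference in Idh3a was not tested. The 4 °C libraries had the highest muscle scores of all 8 (mean log2(FPKM + 1) of 7.95 in replicate 2 and 6.88 in replicate 11), and Idh3a was at 895 and 484 FPKM there. The HFD library with the lowest muscle score of all 8 (replicate 6, 1.11) had 615 FPKM of Idh3a, and 22 °C replicate 4 (5.20) and CD replicate 6 (5.12), with close scores, had 187 and 657 FPKM. With that score as a covariate in a fit of all 8 libraries, the cold log2 fold change of Idh3a was 2.76 (adjusted p = 0.269) and that of Idh2 on HFD was 0.56. In the 22 °C, CD and HFD groups the satellite-high library had the higher score and the lower Idh3a. This fit therefore does not separate the muscle score from library type. All 6 macrophage markers were higher in both HFD libraries (39.9% of all genes), with a median log2 fold change of 1.62. With limma 0 of 6 were called (0.0684% of all genes), and 6 had an unadjusted p under 0.05 (14.4%). With the library-type covariate 6 were called (4.24% of all genes). Their sums were 38.4 to 108 FPKM on CD and 189 to 242 FPKM on HFD. On HFD 2 of 5 white adipocyte markers were called higher (0.0684% of all genes), Lep (log2 fold change 5.005) and Nnat (3.94). Retn was higher in both HFD libraries as well, and Agt (-0.03) and Hoxc8 (-0.08) overlapped. In the cold 3 of the 5 were higher in both libraries (37.9% of all genes). Lep (-2.13) and Nnat (-1.85) were lower in both (20.6%), and 0 of the 5 were called. With the covariate 3 were called in the cold (4.92%). The part of either cell type in the difference in Idh2 was not tested.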

How the data were processed

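The authors depleted ribosomal RNA from BAT RNA, made directional paired-end libraries and processed them with QuickNGS 1.2.7 on Ensembl 87. Reads were mapped to GRCm38 with Tophat2 2.0.10, and Cufflinks gave the gene values (2.1.1 in the methods, 2.2.1 in the submitters' processing notes). The deposited values are FPKM, 1 column per library, with no pooling. Depth is not stated. DESeq2, which the authors ran, needs counts and was not run here.

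Each comparison was fitted on its own 4 libraries with limma 3.58.1 (R 4.3.3; lmFit, eBayes with trend) to log2(FPKM + 1). Autosomal genes with at least 0.1 FPKM in at least 2 libraries were tested, and two-sided p-values were adjusted by Benjamini-Hochberg over all of them. A call needed an adjusted p under 0.05 and at least a 2-fold change. Adding 1 understates folds of low genes. X, Y and mitochondrial genes were left out because 3 libraries (both at 22 °C and CD replicate 6) list all X genes at 0 and at most 1 mitochondrial gene above 0. The labels do not state that libraries came from separate animals, so p-values measure the spread between these libraries. Ratios were compared with an exact permutation test in SciPy 1.17.1. Upstream sequences came from RefSeq (GRCm38.p6). Alternatives covered pseudocount, filter, scaling, covariates, trend and leaving out each library.

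Named were the 9 members, the other cycle enzymes (1 of which is counted but not reported by name here), the called genes and the 2 with the largest change per comparison in the pathway lists, and the 5 genes closest to the members. Marker lists were summarised by counts, and the marker genes named beside them were chosen after their values were seen. Members and lists were chosen with earlier results of these data known.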

Additional observations from a re-analysis of the deposited data

How the results depend on the processing

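Each comparison rests on 2 libraries against 2, depth is not stated, and exact tests cannot go below 0.33, so a difference of the size of the SEs is not resolved. No pairing by replicate number was possible because 22 °C and 4 °C share no replicate number and CD and HFD share only number 6. Library type, with 1 satellite-high and 1 satellite-low library in each group, was the block fitted as a covariate. Library type in a fit of all 8 libraries was added after seeing the data. The cause was not tested for any shift below. In the cold, the members called went from 0 to 1 (Idh3a) with library type as a covariate, in 4 libraries (4.92% of all genes called) or in all 8 (4.97%), and with median centring (4.29%), against 1.44% as reported. Idh3a, Ogdh and Dlst kept their direction under all 15 alternatives. With median centring the members' median was 0.10, 5 did not overlap (68.5% of all genes), and Idh3b (-0.021) and Fh1 (-0.085) were reversed. With quantile normalization the median was -0.14, 3 did not overlap (58.5% of all genes), and Cs (-0.051), Idh3b (-0.26), Suclg1 (-0.23), Sucla2 (-0.14) and Fh1 (-0.37) were reversed. With rescaling to the mRNA sum the median was -0.046, and Idh3b (-0.17), Suclg1 (-0.11), Sucla2 (-0.046) and Fh1 (-0.23) were reversed. With the muscle score as a covariate, which partly follows library type within groups, the median was 1.12 and Idh2 was at 0.27.

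On HFD, the median was -0.85 with the muscle score as a covariate, and 1 member did not overlap after rescaling (44.3% of all genes). Cs and Idh2 kept their direction under all 15 alternatives. Leaving out 1 library at a time gave 2 to 9 members that did not overlap (62.2% to 82.1% of all genes, with 1 value against 2) and log2 fold changes from -0.72 to 0.62 for Idh3a, -0.72 to 0.50 for Idh3b, -0.28 to 0.28 for Ogdh, -0.64 to 0.29 for Dlst, -0.59 to 0.36 for Suclg1, -0.51 to 0.41 for Sucla2 and -0.54 to 0.36 for Fh1. The libraries whose removal turned a sign were HFD replicate 2 (all 7 of these), CD replicate 6 (all but Ogdh) and CD replicate 8 (Ogdh alone). Adding 1 to FPKM before taking ratios turned none of them.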
